A study of Homo sapiens with 4 samples.

Results

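PIK3CA, PIK3R1, AKT1, SGK1 and PPP2CA, which encode subunits of PI 3-kinase, the kinases AKT1 and SGK1 and the catalytic subunit of protein phosphatase 2A, were examined by qRT-PCR in HEK293 cells with and without stable overexpression of PRL-1. They were taken by gene symbol as 5 of the 184 target assays of a panel on integrin, cytoskeletal and motility signaling. The rule used no Ct value, but the choice was made with earlier results of these data known. Some genes of the panel had been put on it for differences seen in earlier microarray or proteomic data of the study. HEK293 cells are a long-established human line from embryonic kidney. HEK293-PRL-1 cells carried pcDNA4-PRL-1 as a stable transfectant, and HEK293-vector cells carried the empty pcDNA4 vector. Total RNA came from 2 biological replicates per group, so that 4 samples were measured, and whether each line was 1 clone or a pool was not given in the sources used here. The samples of a group are called a and b after the letters of their columns. A TaqMan assay reports the threshold cycle (Ct), when probe fluorescence crosses a fixed line. Earlier crossing reflects more template, and a Ct of 40 stands for no detection.

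PI 3-kinases of this class are made of a catalytic and a regulatory subunit. Receptor tyrosine kinases, adaptors and Ras recruit and activate the enzyme at the plasma membrane, where it phosphorylates phosphoinositides. AKT1 binds the resulting lipid and is activated there by phosphorylation, and SGK1 is a related kinase that is switched on by the same upstream kinases. Protein phosphatase 2A (PP2A) removes phosphate from serine and threonine, and AKT is one of its substrates.

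PIK3CA encodes the catalytic subunit p110 alpha and lies at chr3:179148126-179240093 (GRCh38.p14, RefSeq). PIK3R1, which encodes the regulatory subunit p85 alpha, lies at chr5:68215756-68301821. AKT1 lies at chr14:104769349-104795748, SGK1 at chr6:134169256-134318112, and PPP2CA at chr5:134194332-134226073. The position of each assay within its transcript was not given in the sources used here. The 250 bases before the outermost RefSeq start of the 4 detected genes are shown as a description. These genes were picked with their changes known, and SGK1, which was not detected, was left out. A link between the sequences and the changes was not tested. The listed start of PIK3CA lies inside the interval of the gene, so that most of its window lies within the gene. All 5 genes matched the table of promoters by symbol. Capitals mark matches on either strand to the CCAAT box, the GC box core GGGCGG, the cyclic AMP response element TGACGTCA and the TATA box TATAAA. Neighboring or overlapping matches run together, and 2 of the GGGCGG matches of AKT1 overlap.
PIK3CA upstream sequence, chr3:179148107-179148356 (plus strand): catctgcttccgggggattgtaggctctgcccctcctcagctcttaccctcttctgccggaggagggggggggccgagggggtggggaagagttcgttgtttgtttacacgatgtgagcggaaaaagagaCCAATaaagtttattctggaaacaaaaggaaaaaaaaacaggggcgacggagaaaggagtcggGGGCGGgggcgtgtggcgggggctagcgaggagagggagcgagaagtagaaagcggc
PIK3R1 upstream sequence, chr5:68215506-68215755 (plus strand): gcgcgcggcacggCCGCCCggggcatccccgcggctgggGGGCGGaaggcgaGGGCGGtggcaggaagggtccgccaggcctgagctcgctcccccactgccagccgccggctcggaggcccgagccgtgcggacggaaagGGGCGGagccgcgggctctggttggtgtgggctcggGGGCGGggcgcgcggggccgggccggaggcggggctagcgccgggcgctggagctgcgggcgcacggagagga
PPP2CA upstream sequence, chr5:134226074-134226323 (minus strand): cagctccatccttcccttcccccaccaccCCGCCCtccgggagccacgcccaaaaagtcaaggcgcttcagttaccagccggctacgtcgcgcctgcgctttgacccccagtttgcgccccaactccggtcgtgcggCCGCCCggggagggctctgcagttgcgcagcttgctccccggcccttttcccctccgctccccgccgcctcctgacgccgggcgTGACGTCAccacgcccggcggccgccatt
AKT1 upstream sequence, chr14:104795749-104795998 (minus strand): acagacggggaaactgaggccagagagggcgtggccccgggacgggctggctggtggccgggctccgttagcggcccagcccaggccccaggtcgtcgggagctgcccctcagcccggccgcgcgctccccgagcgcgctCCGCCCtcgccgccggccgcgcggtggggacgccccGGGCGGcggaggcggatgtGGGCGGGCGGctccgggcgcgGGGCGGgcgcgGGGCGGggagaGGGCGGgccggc

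Matches to GGGCGG were found in all 4 of these windows, with 1 in PIK3CA, 5 in PIK3R1, 2 in PPP2CA and 7 in AKT1. This motif was present in 42.6% of the 35116 windows of the same length in the table. TGACGTCA, a palindrome, was found in PPP2CA, 29 bases before the start, and was present in 1.65% of all windows. CCAAT was found in PIK3CA, 120 bases before the start, and was present in 32% of all windows. TATAAA was found in none of the 4, and was present in 10.7% of all windows. The table lists 1 start for PIK3CA, 4 for PIK3R1, 2 for AKT1 and 2 for PPP2CA, and the second PPP2CA window held CCAAT but neither GGGCGG nor TGACGTCA. Of the 4 PIK3R1 windows 2 held GGGCGG, whereas both AKT1 windows did. GGGCGG was thus present at the outermost start of each of the 4 genes, but not at every listed start of PIK3R1 and PPP2CA. A match is a description of these letters and not a site of binding.

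Signal was detected in 1 or more samples for 174 of the 184 target assays. Raw Ct of 18S, the reference of the study, lay between 13.9 and 14.2 as the mean of 2 wells per sample, whereas that of the candidate control B2M lay between 26.0 and 28.4. PTP4A1, the gene of PRL-1 itself, was at 40 in all 4 samples, so the overexpression was not checked by this panel. No assay of the panel defines HEK293. Of the epithelial markers CDH1 and ITGB4, both gave signal in all samples. Of the endothelial markers, SELE was at 40 in all samples and PECAM1 was at 38.5 and 38.7 in HEK293-PRL-1 and at 40 in HEK293-vector. The leukocyte marker ITGB2 was between 37.5 and 40. ITGB4 moved from 33.4 in both HEK293-vector samples to 36.6 in both HEK293-PRL-1 samples, a log2 change of −2.99 relative to 18S. CDH1 was at 33.5 and 33.1 in HEK293-vector and at 33.0 in both HEK293-PRL-1 samples, with a log2 change of 0.44 that was not called (limma adjusted p = 0.224). The epithelial markers thus did not move together, and the part of such differences in the results was not tested. In bulk RNA fewer cells of a kind and less RNA per cell cannot be told apart.

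The raw Ct of PIK3CA was 38.0 and 37.2 in HEK293-vector samples a and b, and 33.6 and 33.2 in HEK293-PRL-1 samples a and b. PIK3R1 was at 34.9 and 34.6 in HEK293-vector and at 31.7 and 31.1 in HEK293-PRL-1. For both subunits of PI 3-kinase the HEK293-PRL-1 samples crossed the threshold earlier, without overlap of the groups. PPP2CA was at 30.1 and 29.7 in HEK293-vector and at 27.4 and 27.0 in HEK293-PRL-1, again without overlap. AKT1 ran the other way by a small margin, at 26.0 and 26.3 in HEK293-vector and at 26.7 in both HEK293-PRL-1 samples. SGK1 was at 40 in all 4 samples, so that no difference between the groups was detectable. Its assay stood on the first plate of the sample, and those of the other genes stood on the second.

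**Figure D1:**
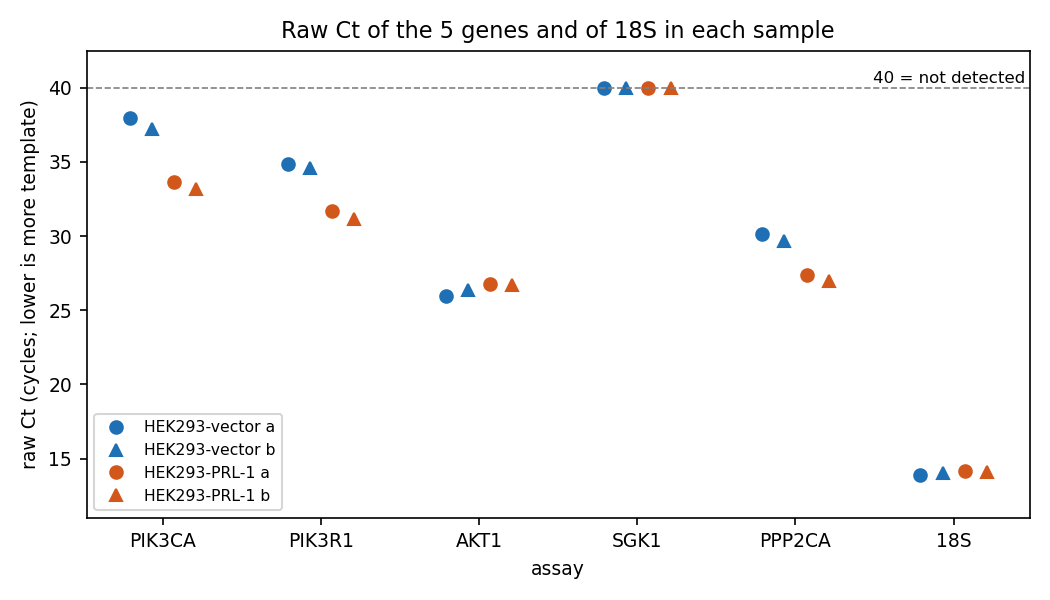
Raw Ct in cycles (vertical axis, lower is more template) of the 5 assays and of 18S in the 2 HEK293-vector samples (blue) and the 2 HEK293-PRL-1 samples (orange), with circles for a and triangles for b; the dashed line marks a Ct of 40. PIK3CA, PIK3R1 and PPP2CA were earlier in both HEK293-PRL-1 samples, AKT1 was slightly later, SGK1 was at 40 throughout and 18S stayed near 14.

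With 18S as reference, PRL-1 overexpression went with more PIK3CA, PIK3R1 and PPP2CA transcript, and AKT1 did not pass the threshold. ΔCt subtracts the mean 18S Ct of a sample from the Ct of an assay. Log2 fold changes are positive where HEK293-PRL-1 had the lower mean ΔCt. Each was tested by limma, adjusted over the 174 detected assays after Benjamini and Hochberg and called at an adjusted p under 0.05.

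ΔCt of PIK3CA averaged 23.7 ± 0.603 (SD, n = 2) in HEK293-vector, against 19.3 ± 0.267 (SD, n = 2) with PRL-1. The change on the log2 scale was 4.38 ± 0.37 (standard error, limma adjusted p = 0.00146), which is a 20.8-fold higher level with a 95% interval of 10.5 to 41.5. This was the 10th highest change among the 174 assays. PIK3CA was also the detected member nearest to the limit of detection in HEK293-vector. Each assay had a single well per sample, so the error of a well and the difference between cultures cannot be told apart.

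For PIK3R1 the average ΔCt fell from 20.8 ± 0.287 (SD, n = 2) in HEK293-vector to 17.3 ± 0.331 (SD, n = 2) with PRL-1. This is a log2 change of 3.49 ± 0.29 (standard error, limma adjusted p = 0.00146), an 11.3-fold higher level with a 95% interval of 6.57 to 19.3. PPP2CA had an average ΔCt of 16.0 ± 0.416 (SD, n = 2) in HEK293-vector and one of 13.0 ± 0.223 (SD, n = 2) with PRL-1. Its log2 change of 2.92 ± 0.30 (standard error, limma adjusted p = 0.00174) is a 7.55-fold higher level, with a 95% interval of 4.31 to 13.2. Of these 3 genes PIK3CA changed most and PPP2CA least.

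The average ΔCt of AKT1 was 12.2 ± 0.195 (SD, n = 2) in HEK293-vector, against 12.6 ± 0.00573 (SD, n = 2) with PRL-1. This is a log2 change of −0.40 ± 0.22 (standard error, limma adjusted p = 0.195), with a 95% interval of −0.99 to 0.20. Both HEK293-PRL-1 samples were below both HEK293-vector samples, yet the difference did not pass the threshold. A rise of AKT1 beyond 0.20 on the log2 scale lies outside the interval.

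Among all 174 assays 58.6% were called higher and 7.47% lower, against 3 of the 4 detected members higher and 0 lower by limma. The unadjusted p of AKT1 was 0.144. The groups did not overlap in 69% of all assays with HEK293-PRL-1 higher and in 14.4% with it lower, so that the 3 members that rose belonged to the majority pattern of the panel. An exact two-sided permutation test gave p = 0.333 for each of the 4 genes, the smallest p that 2 samples against 2 allow. The limma p-values rest on variance shared across assays.

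**Figure D2:**
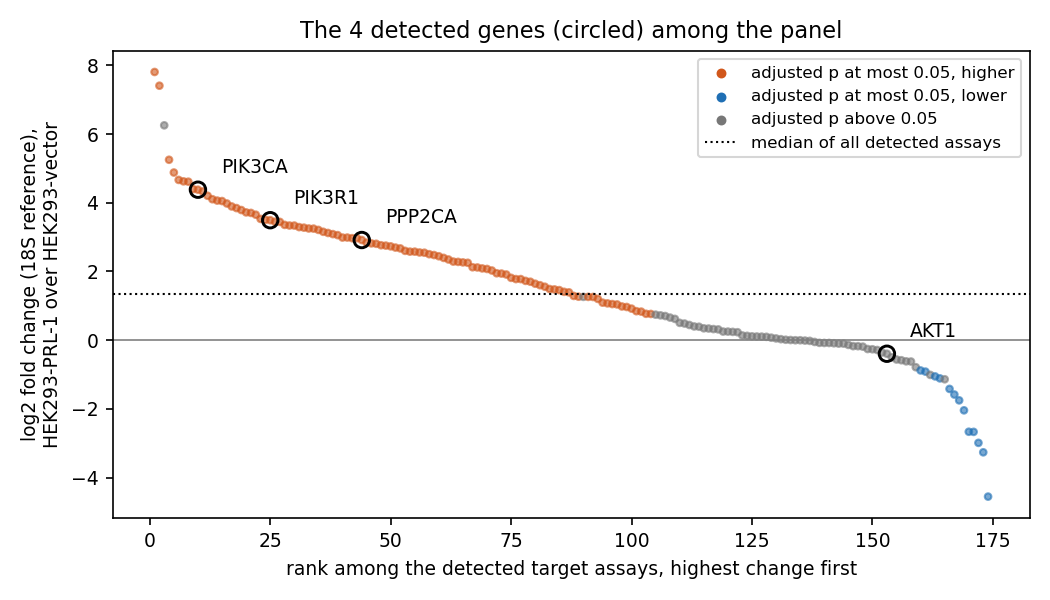
Log2 fold change of HEK293-PRL-1 over HEK293-vector with 18S as reference (vertical axis) for the 174 detected target assays, ordered from the highest (horizontal axis, rank); colors give the limma call, the dotted line the median of 1.34, and circles the 4 detected genes. PIK3CA stood at rank 10, PIK3R1 at 25 and PPP2CA at 44, all above the median, and AKT1 stood at 153.

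The changes of the panel varied with the mean Ct of the assay. The ranges of mean Ct used here were chosen after the values were seen. The mean includes the HEK293-PRL-1 samples, so that a change between the groups also shifts the range in which an assay falls. PIK3CA, at 38.0 and 37.2 in HEK293-vector, thus falls by its mean in the range up to 36. In the 22 assays with a mean Ct up to 28 over all samples, where AKT1 lies at 26.4, the median log2 fold change was 0.17 (quartiles −0.08 and 0.79). In the 84 assays over 28 and up to 32, where PPP2CA lies at 28.5, the median was 1.50 (quartiles 0.22 and 2.84). In the 46 assays over 32 and up to 36, where PIK3R1 and PIK3CA lie at 33.1 and 35.5, it was 2.73 (quartiles 0.55 and 3.52). In the 22 assays over 36 and up to 40, which hold none of the members, it was again 0.17 (quartiles −0.53 and 2.11), so that the median did not rise further across the ranges. An assay that is late in HEK293-vector and rises strongly leaves this last range, so that its median is partly set by the way the ranges were made. AKT1 was thus below the lower quartile of its range, PPP2CA and PIK3CA were above the upper quartile of theirs, and PIK3R1 was within the quartiles. The part of template abundance in the changes was not tested.

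The size of every change depended on the reference, because GAPDH and B2M were themselves higher in HEK293-PRL-1 relative to 18S, by 0.55 and 2.38 on the log2 scale. The median log2 fold change of the 174 assays was 1.34 for 18S, 0.79 for GAPDH and −1.04 for B2M, and −0.85 where the median Ct of all assays below 40 in every sample took the place of a reference gene. PIK3CA was called higher with each of these 4 references, at 4.38, 3.83, 2.00 and 2.19 in that order. PIK3R1 was at 2.94 with GAPDH (adjusted p = 0.00111), at 1.31 with the median (adjusted p = 0.0029) and at 1.11 with B2M, where it was not called (adjusted p = 0.0571, all from limma).

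PPP2CA was at 2.36 with GAPDH (adjusted p = 0.00193) and at 0.73 with the median (adjusted p = 0.0107). With B2M its change was 0.54, with an interval of −0.51 to 1.58 (adjusted p = 0.378 from limma). AKT1 was called lower with all 3 other references, at −0.95 with GAPDH (adjusted p = 0.017), −2.78 with B2M and −2.58 with the median (adjusted p = 0.00255). The fit with B2M pooled the variance of all assays into 1 value (infinite prior degrees of freedom), so its adjusted p-values understate the error. Of all assays, GAPDH as reference gave 49.4% higher and 21.8% lower calls, B2M 12.6% and 47.1%, and the median 25.9% and 51.7%. The order PIK3CA, PIK3R1, PPP2CA, AKT1 was the same under each reference, since a reference shifts all genes of a sample alike.

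**Figure D3:**
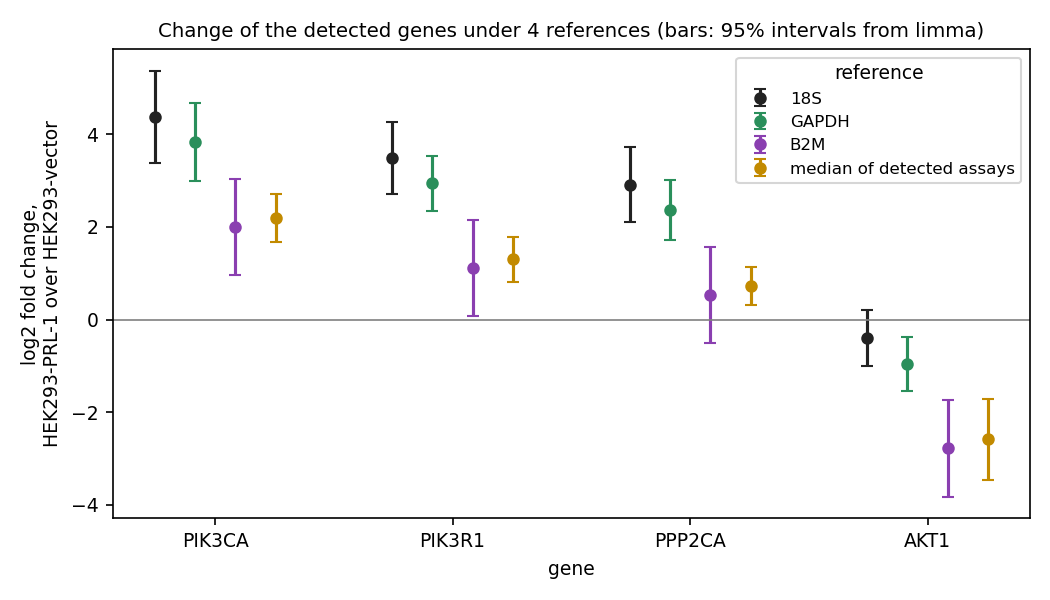
Log2 fold change of HEK293-PRL-1 over HEK293-vector (vertical axis) of the 4 detected genes (horizontal axis) against 18S, GAPDH, B2M or the median of assays below 40 throughout; bars are 95% intervals from limma, n = 2 per group. PIK3CA and PIK3R1 stayed above 0 with each reference, the interval of PPP2CA reached below 0 with B2M, and AKT1 lay below 0 with an interval that included 0 only with 18S.

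Differences in Ct between 2 assays of the same sample need no reference gene, and they were used to set the catalytic subunit against the regulatory subunit, AKT1 and PPP2CA. A Ct difference between assays also holds the difference in their efficiencies, so that it is given in cycles and is compared only between samples. PIK3CA crossed the threshold later than PIK3R1 by 3.10 and 2.65 cycles in HEK293-vector samples a and b, and by 1.94 and 2.03 cycles in HEK293-PRL-1 samples a and b. The gap of the 2 subunits was smaller in both HEK293-PRL-1 samples. PIK3CA thus rose more than PIK3R1, by 0.89 on the log2 scale (standard error 0.28, interval 0.27 to 1.50, adjusted p = 0.0115 from limma over 173 assays set against PIK3R1). Set against PIK3R1, 6.36% of all assays were called higher and 74% lower. The call was lost on the variance of the pair alone (adjusted p = 0.0832), with trended and robust variance (adjusted p = 0.0616), with summed variances of both assays (adjusted p = 0.167), and without HEK293-vector a (0.66, adjusted p = 0.0944), HEK293-PRL-1 a (0.84, adjusted p = 0.382) or HEK293-PRL-1 b (0.93, adjusted p = 0.344).

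The gap between PIK3CA and AKT1 was 12.0 and 10.9 cycles in HEK293-vector and 6.88 and 6.49 cycles in HEK293-PRL-1. Between PIK3R1 and AKT1 it was 8.93 and 8.25 cycles in HEK293-vector and 4.94 and 4.46 cycles in HEK293-PRL-1. Both subunits of PI 3-kinase came closer to AKT1 in HEK293-PRL-1, by more than the spread between replicates. Relative to AKT1, PIK3CA was higher by 4.78 (a 27.4-fold change) and PIK3R1 by 3.89 (a 14.8-fold change) on the log2 scale.

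PPP2CA was 4.19 and 3.33 cycles later than AKT1 in HEK293-vector but only 0.608 and 0.284 cycles later in HEK293-PRL-1. The assays of the phosphatase and the kinase thus crossed the threshold almost together in HEK293-PRL-1. Relative to AKT1, PPP2CA was higher by 3.31 on the log2 scale (a 9.92-fold change). The standard error was 0.63 for all 3 comparisons with AKT1, because the variance was again pooled into 1 value. On the variance of each pair alone it was smaller, at 0.60 for PIK3CA, 0.42 for PIK3R1 and 0.46 for PPP2CA. The pooled fit has infinite prior degrees of freedom. The adjusted p of 5.7e-12, 1.29e-08 and 1.01e-06 for PIK3CA, PIK3R1 and PPP2CA from limma therefore understate the error. With the summed variances of both assays from the fit with 18S, an alternative chosen after seeing the data, they were 0.00251, 0.00251 and 0.00278. On the variance of each pair alone they were 0.0719, 0.0719 and 0.0724 and did not pass. Set against AKT1, 56.6% of all assays were called higher and 3.47% lower, so that the shift against AKT1 was shared by most of the panel.

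The gap between PIK3CA and PPP2CA was 7.84 and 7.57 cycles in HEK293-vector and 6.27 and 6.21 cycles in HEK293-PRL-1. PIK3CA rose more than PPP2CA, by 1.46 on the log2 scale (standard error 0.18, interval 0.99 to 1.94, adjusted p = 0.0018 from limma), where 12.7% of assays set against PPP2CA were called higher and 63.6% lower. With summed variances the adjusted p was 0.0588. PIK3R1 was 4.74 and 4.92 cycles later than PPP2CA in HEK293-vector and 4.33 and 4.18 cycles later in HEK293-PRL-1. These groups did not overlap either, with a change of 0.58 (standard error 0.17, interval 0.12 to 1.04, adjusted p = 0.0343 from limma). That call was lost with summed variances (adjusted p = 0.302), on the variance of the pair alone (adjusted p = 0.0606), with the letters of the samples as a block (adjusted p = 0.0565) and without HEK293-vector b (0.49, adjusted p = 0.0517), HEK293-PRL-1 a (0.65, adjusted p = 0.171) or HEK293-PRL-1 b (0.50, adjusted p = 0.277). In all, 6 pairs of genes were compared. Each was written with the gene of the larger rise first, so its direction follows from the changes of the single genes. The 6 directions are therefore not separate evidence. In each pair the first gene was higher relative to the second in HEK293-PRL-1, without overlap of the groups. The same held for 79.8% of all assays set against AKT1, 22% of those set against PPP2CA and 9.25% of those set against PIK3R1, so that the 3 pairs with AKT1 followed most of the panel.

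**Figure D4:**
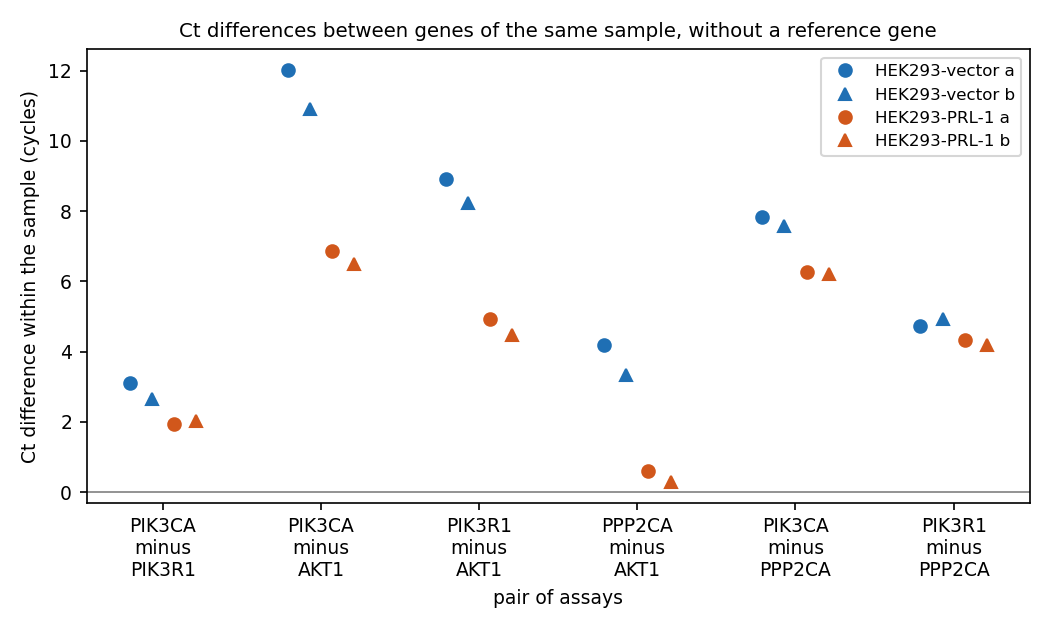
Ct of the first assay minus Ct of the second in the same sample, in cycles (vertical axis), for the 6 pairs of detected genes (horizontal axis), in HEK293-vector (blue) and HEK293-PRL-1 (orange) samples a (circles) and b (triangles). The gene with the larger rise was written first, which sets the direction of each pair. In each pair both HEK293-PRL-1 values lay below both HEK293-vector values, and the gap between PPP2CA and AKT1 fell to 0.608 and 0.284 cycles.

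Samples of the same group also differed along these genes. In HEK293-vector, ΔCt was higher in a than in b by 0.853 cycles for PIK3CA, 0.588 for PPP2CA and 0.406 for PIK3R1, whereas AKT1 differed by −0.275. In HEK293-PRL-1 the same differences were 0.377, 0.316, 0.469 and −0.00811 cycles. Over the panel, ΔCt was higher in a in 142 of 174 assays of HEK293-vector and in 153 of 174 of HEK293-PRL-1, with median differences of 0.419 and 0.253 cycles. The genes that rose with PRL-1 were thus lower in sample a of each group, as most assays were, and AKT1 was not. These differences were smaller than the changes of PIK3CA, PIK3R1 and PPP2CA between the groups, and for AKT1 the difference in HEK293-vector was close to its change. With each sample left out in turn, the log2 fold change relative to 18S was 3.95 to 4.81 for PIK3CA, 3.26 to 3.73 for PIK3R1, 2.62 to 3.21 for PPP2CA and −0.53 to −0.26 for AKT1, and no call changed.

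Assays with the most similar pattern were sought by the distance between ΔCt profiles over the 4 samples, each centered on its own mean, among 164 other assays detected in all samples. PIK3CA was nearest to MAP3K2 (0.291 cycles), HIF1A (0.375) and SOS1 (0.389). PIK3R1 was nearest to TAB2 (0.222), CSNK2A1 (0.231) and ACTR3 (0.256). PPP2CA lay very close to 2 kinases of the MAP kinase cascade, MAP4K4 (0.0549) and MAP3K1 (0.0712), and then to GSK3B (0.138). AKT1 was nearest to GSTP1 (0.247), CCL5 (0.262) and CKB (0.302), none of which was called. The distance includes the difference between the groups, so that near assays have similar log2 fold changes by construction. These were 2.97, 2.97 and 2.82 for the 3 assays nearest to PPP2CA, and −0.56, −0.27 and −0.19 for those nearest to AKT1. How small such distances are between other assays was not examined.

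Other genes of the pathway on the panel were grouped by role, and 21 of these 22 genes were detected. Changes of these genes are given relative to 18S unless another reference is named. Of the 21, 15 were called higher and 0 lower by limma, with a median log2 fold change of 2.07 beside 1.34 for all detected assays, and 58.6% of all assays were called higher. The unadjusted p was under 0.05 in 1 further gene, PDGFRB.

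None of the ligands was called relative to 18S. IGF1, a ligand of the insulin-like growth factor receptor, was at 40 in all samples. The platelet-derived growth factor chains PDGFA and PDGFB were at −0.29 (adjusted p = 0.314) and −0.50 (adjusted p = 0.257), and the endothelial growth factor VEGFA was at −0.02 (adjusted p = 0.964). Of the 4 receptors, PDGFRA, at a Ct of 39.7 and 38.3 in HEK293-vector, rose by 3.21, FLT1, a receptor of VEGFA, by 2.55, and IGF1R by 1.04 on the log2 scale. PDGFRB was at −1.14 and just missed the threshold (adjusted p = 0.0525 from limma), with both HEK293-PRL-1 samples lower. Its raw Ct was 35.8 and 36.2 in HEK293-vector and 37.8 and 36.8 in HEK293-PRL-1.

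Of the 5 adaptors and inputs to PI 3-kinase, 4 rose, where 58.6% of all 174 assays were called higher relative to 18S. NRAS and HRAS, small GTPases that bind the catalytic subunit, rose by 3.72 and 1.05. PTK2, which encodes focal adhesion kinase, rose by 2.99, and the docking protein IRS1 by 2.26. SRC, a cytoplasmic tyrosine kinase, was at −0.08 (adjusted p = 0.805 from limma). The inputs thus ranged from SRC, within the spread of replicates, to NRAS, next to PIK3R1 at 3.49.

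Of the 7 substrates and downstream genes of AKT and SGK kinases, 6 rose, again beside 58.6% of all 174 assays. CHUK, a kinase of the NF-kappaB pathway, rose by 4.05, MAP3K5, an apoptosis-signaling kinase, by 3.53, and GSK3B, which AKT inhibits by phosphorylation, by 2.82. WNK1 rose by 2.07, CCND1, which encodes cyclin D1, by 1.91 and the pro-apoptotic BCL2L11 by 1.26. The cell cycle inhibitor CDKN1A was at −0.26 (adjusted p = 0.355 from limma). AKT1 itself, at −0.40, lay below all 7 of these genes. Of the other phosphatase genes, PPP1R12A, a regulatory subunit of myosin phosphatase, rose by 3.98 and the phosphatase PPM1E by 2.28, with PPP2CA in between at 2.92.

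These counts followed the reference as those of the whole panel did. Of the 21 genes, 12 were called higher and 6 lower with GAPDH, 3 and 8 with B2M, and 6 and 9 with the median of the detected assays. The 6 genes not called relative to 18S, which are PDGFA, PDGFB, VEGFA, PDGFRB, SRC and CDKN1A, were called lower with each of these 3 references. With GAPDH they ranged from −0.57 for VEGFA to −1.69 for PDGFRB, and with B2M from −2.40 for VEGFA to −3.52 for PDGFRB. Of the genes that rose relative to 18S, IGF1R and HRAS were called lower with B2M (−1.34 and −1.33) and with the median (−1.15 and −1.14), and BCL2L11 with the median (−0.93). CCND1 and WNK1 were also below 0 with both, and IRS1 and PPM1E with B2M, without a call. The 3 genes called higher with all 4 references were CHUK, PPP1R12A and NRAS, at 1.67, 1.60 and 1.34 with B2M and at 1.86, 1.79 and 1.53 with the median. On the variance of each assay alone, 5 of the 21 were higher and 0 lower, against 24.1% higher and 5.17% lower among all assays, while PIK3CA, PIK3R1 and PPP2CA each had an adjusted p of 0.0468.

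**Figure D5:**
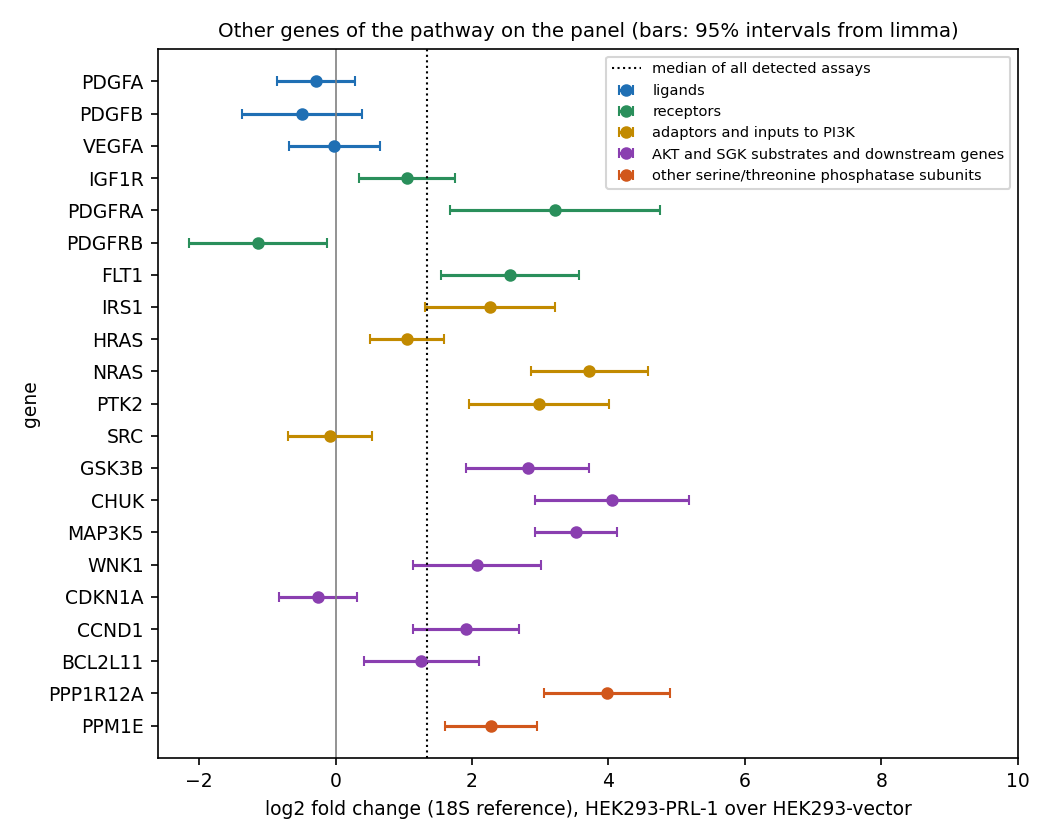
Log2 fold change of HEK293-PRL-1 over HEK293-vector with 18S as reference (horizontal axis) of the 21 detected genes of the pathway lists (vertical axis), colored by role; bars are 95% intervals from limma, n = 2 per group, and the dotted line is the median of 1.34 of all detected assays. The 3 ligands lay near 0, PDGFRB lay below 0, and the other groups lay mostly above it, up to CHUK at 4.05.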

How the data were processed

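Ct values of 184 target assays were used, from 2 vector and 2 PRL-1 samples. Per the labels and the methods, DNase-treated RNA was reverse transcribed with random hexamers and amplified for 40 cycles on 2 plates of 96 wells, and Ct was deposited per well by the authors without normalization, a Ct of at least 40 being given as 40. A deposited table of fold changes between the groups was not used, and 1 candidate control and 3 pathway genes are not reported here. Columns were mapped to groups by their names, and their letters are not tied to replicate numbers. ΔCt against the mean of 2 wells of 18S was tested in R 4.3.3 with limma 3.58.1 (lmFit, then eBayes) and adjusted by the Benjamini-Hochberg method over assays below 40 in at least 1 sample, in place of the per-assay test of the methods, which was an alternative. Each assay had 2 residual and 2.46 prior degrees of freedom. Gaps between genes used the same fit with a member as reference. A perfect amplification efficiency was assumed, and a lower one would change the fold changes. Ct has no read depth, and the number of samples limits the precision. The test was checked on simulated data with independent noise and with rises as likely as falls. Gaps between genes, and a panel in which most calls are higher, were not simulated. Named genes were the members, the pathway lists, the references and the 3 assays nearest to each detected member. The members and lists were chosen with earlier results of these data known. Other references, other treatments of Ct of 40, filters, variances, a replicate block and left-out samples were tried. Promoters are from RefSeq (GRCh38.p14). Figures were drawn in Python 3.11.15 with pandas 2.3.3 and matplotlib 3.10.9.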

Additional observations from a re-analysis of the deposited data

How the results depend on the processing

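No direction was reversed under any alternative to the results for the 4 detected genes and the 6 pairs. Alternatives that changed only the variance, the filter, the treatment of Ct of 40 or the block left these values as they were and could not reverse them. Only other references and left-out samples could move the genes, and only left-out samples the pairs. The PIK3CA call held under all 14 alternatives. The reference moved most. PIK3R1 (1.11) and PPP2CA (0.54) lost their calls with B2M, and AKT1 gained a lower call with GAPDH (−0.95), B2M (−2.78) and the median of detected assays (−2.58). With GAPDH, B2M and the median in that order, 38, 82 and 90 assays of the panel and 6, 8 and 9 of the pathway were called lower, and with B2M and the median 22 and 45 of the panel and 3 and 6 of the pathway were called higher. Of all calls 88.7% were higher with 18S, against 69.4%, 21.2% and 33.3% with GAPDH, B2M and the median. On each assay's own variance 42 assays of the panel and 5 of the pathway were called higher, and the calls of PIK3CA against PIK3R1 (0.89), of PIK3CA (4.78), PIK3R1 (3.89) and PPP2CA (3.31) against AKT1 and of PIK3R1 against PPP2CA (0.58) were lost. PIK3CA against PIK3R1 also lost its call with trended and robust variance (0.89). With summed variances of both assays, added after seeing the data, the calls of PIK3CA against PIK3R1 (0.89) and of PIK3CA (1.46) and PIK3R1 (0.58) against PPP2CA were lost. With 18S of the own plate, with Ct of 40 as missing, and over assays below 40 in all samples, 1 pathway assay, PDGFRB, was called lower in place of 0. What causes these losses was not tested.

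With each sample left out in turn, 74 to 108 assays of the panel were called higher and 7 to 19 lower, the fewest lower without HEK293-PRL-1 a. Of the pathway 12 to 15 were called higher and 0 to 1 lower, the 1 being PDGFRB in all but the set without HEK293-PRL-1 a. PIK3CA against PIK3R1 ranged from 0.66 to 1.11, and PIK3R1 against PPP2CA from 0.49 to 0.67. A group left with 1 sample was assumed to vary like the other.

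A replicate block by the letters of the columns, which neither the labels nor the methods tie to replicate numbers, gave 104 higher and 13 lower calls. It ended the call of PIK3R1 against PPP2CA (0.58) and changed no other call for the genes and pairs. The differences between a and b of the groups had a correlation of −0.0146 across the 174 assays, which are not independent replicates. A shift shared by most assays does not enter this value. ΔCt was higher in a in 142 assays of HEK293-vector and in 153 of HEK293-PRL-1. Precision is limited by 2 samples per group and 1 well per assay.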
